A study of Mnemiopsis leidyi with 50 samples.

Results

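The transcripts described here are those of the ctenophore *Mnemiopsis leidyi* whose level was highest and most concentrated at 18–20 hours post fertilization (hpf), the last hours of a developmental time course. By the rule below, 145 were taken among 16548 protein models (ML2.2), of which 15152 had a count in any embryo. Single whole embryos were measured with CEL-Seq, in which the RNA of an embryo is barcoded, amplified and read near its 3′ ends. A value is therefore the number of reads of a model in 1 embryo, with no correction for length. The 50 embryos covered 26 time points, singly up to 12 hpf and in groups of 4 per hour from 13 hpf on. The embryos came from spawned wild-caught adults, and the labels give neither strain, treatment nor parentage, so the tests below measure the spread between these embryos only.

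The members were chosen by their own level. Counts were scaled to CPM, counts per 1e6 of an embryo's total, and means were taken over 8 windows of hours from 1 to 20 hpf in the 46 embryos with at least 200000 counts. Of the 1004 models that were highest at 18–20 hpf with a mean of at least 20 CPM there, the 150 with the largest share of their summed window means at 18–20 hpf were taken, and 5 of these that are named for exclusion were dropped. The share is thus a criterion and not a finding. It ran from 46.6% to 85.7% over the members, with a median of 56.8%. Just inside the limit were ML01344a (46.76%) and ML388111a (46.55%), and just outside were ML46081a (46.55%) and ML444214a (46.50%).

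*M. leidyi* develops directly from a stereotyped cleavage into a swimming cydippid larva with a pair of retractable tentacles. Its tentacle epidermis holds colloblasts, cells known only from ctenophores that release an adhesive on contact with prey. Ctenophores of the genus *Beroe* have no tentacles, and those of *Haeckelia* have tentacles without colloblasts. In animal embryos in general, RNAs supplied by the mother are replaced by RNAs made from the embryo's own genome, and transcripts that rise late in development often belong to cells that are completing differentiation. Of the 145 members, 8 stand in the lists of models that the study names by identifier, and 137 carry an identifier only.

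Some libraries stood apart. The embryos numbered 41–60 hold every embryo up to 12 hpf and 1 each at 13 and 20 hpf, and those used had 3.21–4.54% of their reads in the ambiguous class. The used embryos numbered 61–90, all at 13–20 hpf, had 0.740–2.04%. The deposited description calls 14–19 hpf newer time points. Before 13 hpf, time and this difference between libraries cannot be told apart. Total counts ran from 278730 to 2079694 in the 46 embryos used. Embryo 81 at 18 hpf (812594 counts) and embryo 82 at 19 hpf (134806 counts) had 78.4% and 74.3% of their reads not aligned, more than the 55.4–64.6% of the other used embryos numbered 61–90. In both, the model ML12231a alone took a large part of the counts, 7.05% in embryo 81 and 5.04% in embryo 82, so sums over the members are given with and without it.

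The members were nearly silent in the first hours and took a growing part of each embryo's RNA from 13 hpf. Their summed counts were 0.00722–0.0261% of an embryo's total at 1–3 hpf, 0.0233–0.108% at 4–6 hpf, 0.0260–0.148% at 6.5–8 hpf, 0.0537–0.0689% at 8.5–10 hpf and 0.0736–0.146% at 11–12 hpf. They were then 0.276–1.01% at 13–14 hpf, 1.11–2.21% at 15–17 hpf and 2.06–8.95% at 18–20 hpf. Without ML12231a the last 3 ranges were 0.199–0.932%, 0.925–1.70% and 1.89–3.63%, which do not overlap between 15–17 and 18–20 hpf. The 2 highest sums before 12 hpf were mostly ML12231a, with 941 of the 1083 member CPM in the embryo at 6 hpf and 1194 of 1479 at 7.5 hpf. Within the embryos numbered 41–60 alone, the sum without ML12231a was 0.116% at 12 hpf, 0.199% at 13 hpf and 1.93% at 20 hpf. All of these values took part in the choice of the members and describe it.

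**Figure D1:**
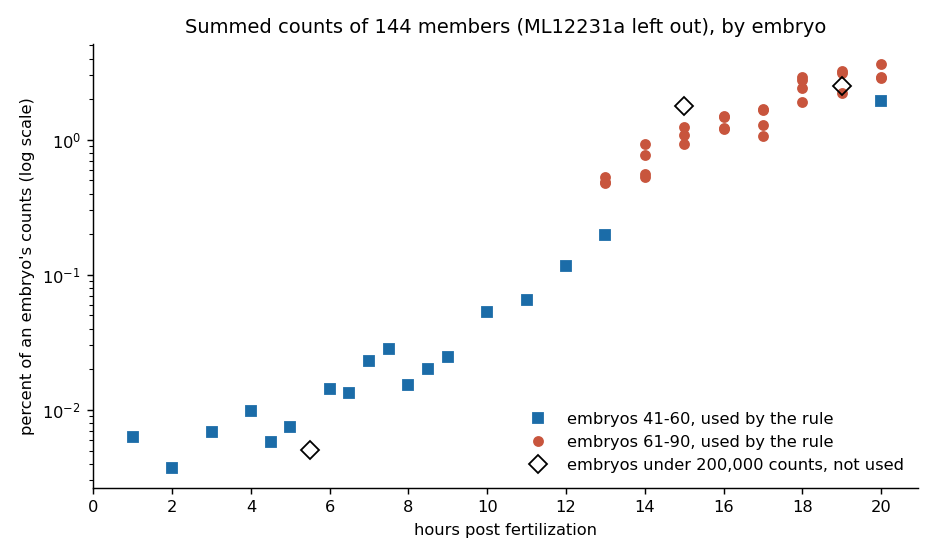
Summed counts of the 144 members other than ML12231a as a percent of each embryo's counts (log scale) against hours post fertilization. Squares are embryos 41–60, circles embryos 61–90 and open diamonds embryos under 200000 counts, which the choice of members did not use; the 0 hpf embryo with 1119 counts is left out. The sum is under 0.12% in every used embryo up to 12 hpf and 1.89–3.63% at 18–20 hpf.

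Hour by hour, the level of the typical member showed its widest gap between 17 and 18 hpf. The median member stood at 2.23% of its own 18–20 hpf mean at 12 hpf, at 14.2% at 13 hpf, 24.0% at 14 hpf, 38.8% at 15 hpf, 46.5% at 16 hpf and 50.2% at 17 hpf. It stood at 92.5% at 18 hpf, 99.2% at 19 hpf and 105.5% at 20 hpf. The gap lies at a border between windows of the rule, so it is not independent of the choice. A first level of at least 10% of the 18–20 hpf mean was reached by 100 members at 13–14 hpf and by 30 at 15–17 hpf. It was reached by 11 at 11–12 hpf, by 2 at 8.5–10 hpf and by 1 each at 6.5–8 and 4–6 hpf. All used embryos before 13 hpf belong to the lower-numbered libraries, and at 13–14 hpf only embryo 59 does. Without ML12231a, the summed members were 0.116% in embryo 58 at 12 hpf and 0.199% in embryo 59 at 13 hpf. They were 0.482%, 0.533% and 0.485% in embryos 61, 69 and 76 at 13 hpf. The part of this change of libraries in the step from 12 to 13 hpf, and in the count at 13–14 hpf, was not tested. No count at all was found at 1–12 hpf for 20 members, 13.8% of them, against 0.234% of the 853 other models that were highest at 18–20 hpf. The 1–12 hpf window means also entered the choice.

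**Figure D2:**
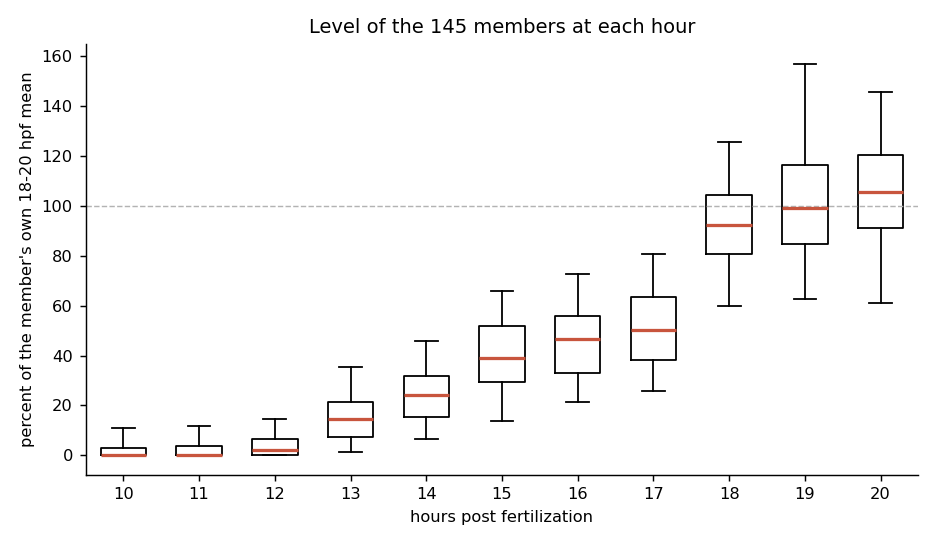
Level of the 145 members at each hour from 10 to 20 hpf, as a percent of each member's own mean at 18–20 hpf (mean over the used embryos of that hour). Boxes show quartiles with the median as a line, and whiskers reach the 5th and 95th percentiles of members; the median is 50.2% at 17 hpf and 92.5% at 18 hpf.

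The members covered a wide range of levels. Their mean at 18–20 hpf ran from 20.5 to 8125 CPM, and their window means had medians of 17.8, 41.7 and 92.5 CPM at 13–14, 15–17 and 18–20 hpf. In the same 3 windows the 853 other models highest at 18–20 hpf had medians of 40.5, 43.2 and 54.0 CPM. The mean at 18–20 hpf was a median of 2.11 times the mean at 15–17 hpf (quartiles 1.84 and 2.64). Single embryos of the last 3 hours differed a good deal, with a coefficient of variation over the 11 embryos of 23.4–256% and a median of 55.2%.

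Because of this spread, the embryos of 18–20 hpf rarely separated from those of 15–17 hpf for a single member. Every 18–20 hpf embryo lay above every 15–17 hpf embryo for 1 member, ML09067a, which was singled out after its values were seen. That was 1 of all 4986 models with at least 20 CPM at 18–20 hpf, 0.0201%, and the rule used these values. ML09067a had 11.1, 23.0 and 37.8 CPM as the lowest, median and highest of 11 embryos at 18–20 hpf, against 2.57, 5.19 and 9.17 CPM in 11 embryos at 15–17 hpf. At least 9 of the 11 late embryos lay above all those of 15–17 hpf for 15 members, and the median member had 6 such embryos. These 2 counts were not made over all models, and the rule used their values too, so they only describe the members. The steadiest member, ML050916a, also singled out afterwards, had a lowest, median and highest level of 126, 216 and 298 CPM at 18–20 hpf, against 52.1, 104 and 169 CPM at 15–17 hpf. Its 2 ranges overlap in 1 late embryo only, at 20 hpf.

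The 4 members with the largest share are unnamed models that were at or near 0 until 14 hpf. ML07322a (share 85.7%) had 8.24, 46.8 and 212 CPM as lowest, median and highest level at 18–20 hpf, against 1.84, 9.36 and 22.9 CPM at 15–17 hpf. ML02676a (81.6%) had 4.92, 39.0 and 101 CPM, against 0, 3.12 and 26.1 CPM. ML011711a (81.2%) had 3.30, 95.8 and 265 CPM, against 4.16, 21.6 and 42.7 CPM. In these members the ranges of the 2 windows overlap, and the low end at 18–20 hpf was the 20 hpf embryo numbered 60 in ML07322a and ML011711a. ML216324a (78.9%) had 1.77, 19.8 and 75.5 CPM at 18–20 hpf, against 0.921, 3.43 and 10.4 CPM at 15–17 hpf.

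The most abundant members were likewise unnamed. ML18206a had 1001, 1932, 1282 and 1584 CPM in the embryos at 18 hpf, 1941, 1066 and 667 CPM at 19 hpf, and 1187, 1350, 1464 and 1899 CPM at 20 hpf. At 15–17 hpf its 11 embryos ran from 302 to 996 CPM with a median of 523 CPM, so that 10 of the 11 late embryos lay above all of them. ML01433a had 803, 1208 and 2027 CPM as lowest, median and highest at 18–20 hpf, against 433, 875 and 1302 CPM at 15–17 hpf. ML002228a had 190, 979 and 4495 CPM at 18–20 hpf, against 290, 602 and 1225 CPM at 15–17 hpf, with its highest value in embryo 89. These 3 were at 42.2–65.5 CPM by 11–12 hpf.

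The mean of ML12231a, the highest of the members, was raised by embryo 81. Its levels at 18 hpf were 3390, 1409, 70546 and 283 CPM, at 19 hpf 7566, 683 and 1059 CPM, and at 20 hpf 1266, 812, 485 and 1876 CPM. The embryo at 19 hpf that the rule did not use, number 82, had 50398 CPM. At 15–17 hpf the lowest, median and highest levels were 336, 699 and 7163 CPM, so most late embryos lay inside the earlier range. Embryo 81 held 78.9% of the 18–20 hpf sum. Without it the mean at 18–20 hpf was 1883 CPM, against 1707 CPM at 15–17 hpf, and still above that of ML18206a (1397 CPM over all 11 embryos). Both embryos with the extreme values are those with the largest part of reads not aligned among the embryos numbered 61–90, and the part of this in the level of ML12231a was not tested. ML19853a was also highest in embryo 81 at 18 hpf, with 908 CPM against 22.5–74.6 CPM in the other embryos of that hour. It had 512 CPM in embryo 82, 359 and 352 CPM in 2 further embryos at 19 hpf, and 2.80–76.1 CPM at 20 hpf.

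Embryo 89 at 19 hpf led 7 members, 2 of them by a wide margin. ML08388a had 551 CPM there, against 5.59–44.3 CPM in the other late embryos, so 72.6% of its 18–20 hpf sum came from this embryo. ML41821a had 1135 CPM there, against at most 216 CPM elsewhere in the window (59.7% of the sum). With the leading embryo left out of the window, these 2 were the only members of the 145 whose highest window was no longer 18–20 hpf. Their means were then 20.8 and 76.7 CPM at 18–20 hpf, against 32.3 CPM at 13–14 hpf for ML08388a and 82.9 CPM at 15–17 hpf for ML41821a.

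**Figure D3:**
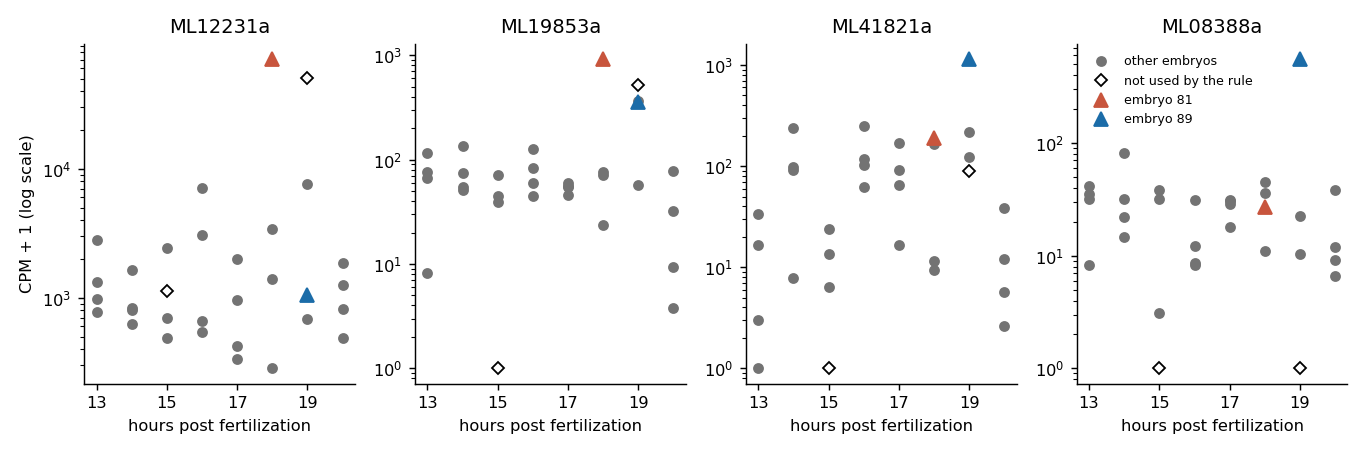
CPM + 1 (log scale) of 4 members led by 1 or a few embryos, against hours post fertilization from 13 to 20 hpf. Circles are the used embryos, triangles embryos 81 and 89, and open diamonds embryos the choice of members did not use. ML12231a reaches 70546 CPM in embryo 81 and 50398 CPM in embryo 82, and ML41821a and ML08388a reach 1135 and 551 CPM in embryo 89.

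The highest embryo of a member was often a shallow one. The 3 used embryos at 18–20 hpf with fewer than 400000 counts (numbers 67 and 75 at 19 hpf and 90 at 20 hpf) were the highest for 76 of the 145 members. The same count over all models was not made, so it is not known to be particular to the members. These 3 embryos also had the 3 largest sums without ML12231a, 3.24%, 3.12% and 3.63%, against 1.89–2.91% in the other 8 late embryos. Among the used late embryos the largest sums were thus in the shallowest ones. Embryo 82 at 19 hpf, shallower still and not used by the rule, had 2.51%, inside the range of the other 8. The part of depth in the levels was not tested.

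Among the named lists, the members held 3 colloblast candidates, 4 tentacle candidates, 1 of them known here from its cluster only, and 1 model of a cnidocyte orthology group. The study chose its candidates by gene loss across species, among genes found in most of its taxa, *M. leidyi* included. Colloblast candidates were those missing from *Beroe* and *Haeckelia*. Tentacle candidates were those missing from *Beroe* but found in a species of *Haeckelia*. Outside the clusters, candidates could be matched here only where the study gives a protein domain match, so the lists are not complete and no share of candidates is given. The study built its clusters from time courses that include these embryos, so membership is not independent of them. The second tentacle cluster holds 6 models, of which the rule leaves out 3 by name, and 2 of the others were members. No member stood in the first tentacle cluster (18 models) or in the first (27) and second (10) colloblast clusters. These numbers are of models with a count that the rule does not leave out by name. Over all models with a count, 0.957% were members, and no difference between clusters was tested. None of the 9 models with a hit to a known adhesive protein or the 5 named transcription factors was a member. Nor was any of the 13 models with a hit to a known toxin, 1 of which the rule leaves out by name.

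Both candidate members with a MACPF domain, the fold of perforin and complement proteins that form pores in membranes, were colloblast candidates without a count at 1–12 hpf. ML14871a, which also carries thrombospondin type 1 and immunoglobulin domains, had 47.8, 73.6, 13.5 and 38.2 CPM at 18 hpf, 10.8, 12.4 and 25.3 CPM at 19 hpf, and 8.24, 68.6, 18.7 and 53.1 CPM at 20 hpf. Its 15–17 hpf embryos ran from 7.37 to 42.7 CPM (median 12.8), overlapping all but 4 of the late ones. ML03672a had 7.92, 25.1 and 47.8 CPM as lowest, median and highest at 18–20 hpf, against 0.857, 10.8 and 29.4 CPM at 15–17 hpf. The other 3 candidates with a MACPF domain were also highest at 18–20 hpf, with means of 8.72 CPM (ML02206a), 17.0 CPM (ML24223a) and 8.85 CPM (ML435831a), below the 20 CPM needed.

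The third colloblast candidate, ML000715a, has a glutaredoxin domain, found in small enzymes that reduce disulfides with glutathione. It had 26.6, 32.6, 8.61 and 14.6 CPM at 18 hpf, 39.5, 30.9 and 4.75 CPM at 19 hpf, and 0, 28.7, 39.0 and 28.0 CPM at 20 hpf. The 0 was in embryo 60, where a count of 0 allows up to 4.95 CPM. Its 11 embryos at 15–17 hpf ran from 4.74 to 20.3 CPM (median 12.7), so that 7 late embryos lay above them, 3 inside their range and embryo 60 below it. The other 2 glutaredoxin candidates were higher at 18–20 hpf, with 95.7 and 108 CPM, but had 74.3 and 88.9 CPM at 15–17 hpf already, and their shares of 43.4% and 36.7% fell short.

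Among the tentacle candidates with a domain match, 2 of 6 palmitoyl protein thioesterase models, enzymes of the alpha/beta hydrolase fold that remove palmitate from proteins, were members. ML46083a, without a count at 1–12 hpf, had 21.3, 42.0, 2.46 and 10.1 CPM at 18 hpf, 7.18, 46.3 and 9.50 CPM at 19 hpf, and 75.8, 32.4, 35.9 and 41.9 CPM at 20 hpf. All 4 embryos at 20 hpf lay above the 15–17 hpf range of 1.34–21.6 CPM, and 5 late embryos lay inside it. ML18106a had 8.24, 22.5 and 57.4 CPM as lowest, median and highest at 18–20 hpf, against 1.71, 8.41 and 19.0 CPM at 15–17 hpf. The other 4 thioesterase models had at most 4.75 CPM at 18–20 hpf.

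A further tentacle candidate, ML13917a, has a phospholipase C-like phosphodiesterase domain and belongs to the second tentacle cluster. It had 39.0, 52.5, 19.7 and 16.8 CPM at 18 hpf, 50.2, 58.7 and 6.33 CPM at 19 hpf, and 28.0, 73.6, 77.9 and 95.1 CPM at 20 hpf. At 15–17 hpf it ran from 5.53 to 27.5 CPM (median 11.6), and 8 of the 11 late embryos lay above that. The other phosphodiesterase candidate, ML03218a, was highest at 13–14 hpf, with means of 16.5, 14.5 and 7.66 CPM in the 3 windows from 13–14 to 18–20 hpf. The other member of the cluster, ML154120a, had 1.65, 29.6 and 105 CPM as lowest, median and highest at 18–20 hpf, against 3.34, 18.1 and 33.2 CPM at 15–17 hpf.

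ML41821a stands in the orthology group of alicitoxin, a toxin named from cnidarians, whose stinging cells are the cnidocytes. Its levels were the least regular of the listed members. It had 10.6, 8.41, 191 and 164 CPM at 18 hpf, 122, 216 and 1135 CPM at 19 hpf, and 1.65, 37.4, 4.68 and 11.2 CPM at 20 hpf. At 15–17 hpf it ran from 5.35 to 250 CPM (median 64.5), and only embryo 89 lay above. The other 3 models of the group had means of 20.2 CPM (ML020060a), 8.85 CPM (ML435831a) and 0.856 CPM (ML10468a) at 18–20 hpf.

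**Figure D4:**
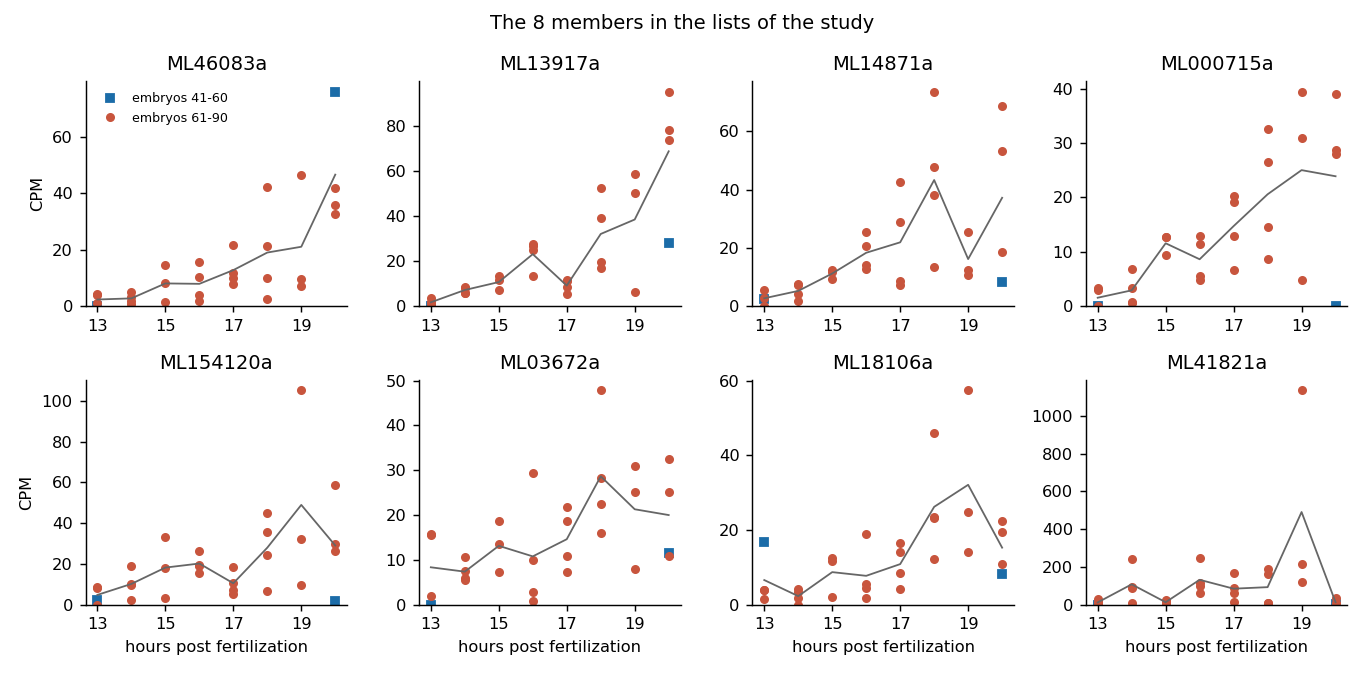
CPM of the 8 listed members in each used embryo from 13 to 20 hpf, with squares for embryos 41–60, circles for embryos 61–90 and a line through the mean of each hour. Each panel has its own axis from 0; ML46083a is above its 15–17 hpf range in all 4 embryos at 20 hpf, and ML41821a reaches 1135 CPM in 1 embryo at 19 hpf.

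The order of the hours inside a window was not used to choose the members, and hours of the same window were compared. The values of these hours did enter the window means, however. Models chosen for a rise between windows may also rise inside them. A shift of the members against all models is therefore not independent of the choice. Counts of the embryos numbered 61–90 with at least 200000 counts were fitted with edgeR's quasi-likelihood test with 1 coefficient per hour. All 145 members were among the 8815 models tested, and Benjamini-Hochberg adjustment ran over all of them. The 17 against 15 hpf and the 20 against 18 hpf comparisons share no embryo.

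Between 17 and 15 hpf no member passed edgeR's adjusted threshold of 0.05, and no other model did (0% in each direction). At an unadjusted p under 0.05, 29 members (20%) were higher at 17 hpf and 0 lower, against 3.62% of all models tested higher and 3.39% lower. The log2 fold change was above 0 for 105 members (72.4%), against 54.7% of all models, with a median of 0.41 against 0.06 over all models. DESeq2 called 9 members higher and 0 lower at an adjusted p under 0.05, against 0.159% of all models higher and 0.125% lower, and limma voom called 0. Thus the call depends on the tool, while the direction of the median did not change with any tool, scaling or omitted embryo (0.31–0.58 when 1 embryo was left out). Every embryo at 17 hpf was above every embryo at 15 hpf for 20 members (13.8%), against 3.93% of all models, and the reverse held for 2 members, against 5.98%.

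The smallest p of a member belonged to ML13378a, which had 60.8, 94.9, 55.9 and 138 CPM at 17 hpf, against 9.35, 22.7 and 9.05 CPM at 15 hpf. Its groups did not overlap, and the log2 fold change was 2.69 (standard error 0.52, edgeR adjusted p = 0.104). Over its alternatives the adjusted p ran from 0.00041 (DESeq2) to 0.83 (edgeR without embryo 85 at 15 hpf), and it was under 0.05 also with no filter on low counts (0.0112) and without embryo 80 at 17 hpf (0.0419). With the shallow embryo 78 at 15 hpf included, where its level was 480.5 CPM (9 counts), the log2 fold change was 2.01 (edgeR adjusted p = 0.642). ML02676a had 26.1, 14.4, 20.8 and 13.8 CPM at 17 hpf, against 3.12, 1.34 and 0 CPM at 15 hpf, again without overlap. Its log2 fold change was 3.66 (standard error 0.77, edgeR adjusted p = 0.135), and over its alternatives the adjusted p ran from 0.0075 (DESeq2) to 0.83 (edgeR without embryo 85). The 2 members with the smallest p among those with the lower level at 17 hpf were ML45522a (log2 fold change -0.83, edgeR adjusted p = 0.721) and ML179912a (-1.06, edgeR adjusted p = 0.746).

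Between 20 and 18 hpf, too, no member and no other model passed edgeR's adjusted threshold (0% in each direction). Unadjusted p-values were under 0.05 for 13 members (8.97%) higher at 20 hpf and 4 lower, against 3.20% and 3.94% of all models. DESeq2 called no member, with 0.0227% of all models higher and 0.0113% lower, and limma voom called none. The log2 fold change was above 0 for 114 members (78.6%), against 49.0% of all models, with a median of 0.33 against -0.01. The size of this median rested on single embryos. It was 0.18 without embryo 81 at 18 hpf, 0.19 without embryo 90 at 20 hpf and 0.51 without embryo 74 at 18 hpf, and the members higher at an unadjusted p under 0.05 were 8, 9 and 22 in these 3 fits.

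ML02662a and ML016318a were the members with the smallest p among those with the higher level at 20 hpf. ML02662a had 465, 142 and 266 CPM in the 3 embryos at 20 hpf that entered the fit, against 99.2, 110, 86.1 and 39.3 CPM at 18 hpf. Its log2 fold change was 1.82 ± 0.48 (standard error), with an edgeR adjusted p of 0.45. ML016318a had 93.6, 126 and 123 CPM at 20 hpf, against 53.1, 46.2, 28.3 and 37.1 CPM at 18 hpf. Its log2 fold change was 1.50 ± 0.40 (standard error), with the same edgeR adjusted p of 0.45. In both, every embryo at 20 hpf lay above every embryo at 18 hpf, as for 15 members in all (10.3%, against 2.72% of all models), while 0 members lay wholly below (against 2.73%). Embryo 60, the 20 hpf embryo outside the fit, had 500 CPM of ML02662a and 33.0 CPM of ML016318a. The members with the smallest p in the other direction were ML19853a (log2 fold change -2.68, edgeR adjusted p = 0.454) and ML12231a (-4.03, edgeR adjusted p = 0.454). Both rested on embryo 81, without which the values were -0.51 and -0.62.

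**Figure D5:**
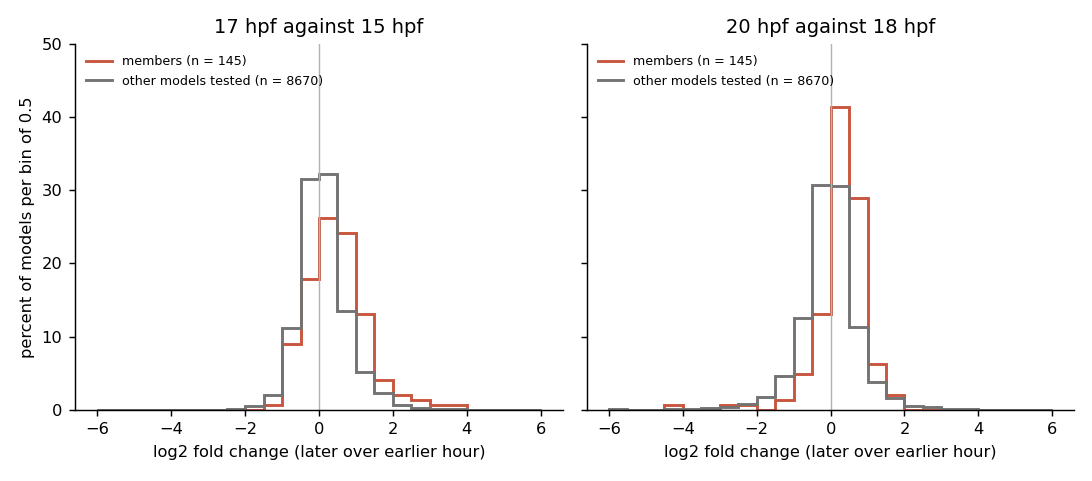
Distribution of edgeR log2 fold changes (later over earlier hour) for the 145 members and the other 8670 models tested, as a percent of models in bins of 0.5, for 17 against 15 hpf (left) and 20 against 18 hpf (right). The members lie to the right of the other models in both panels, with medians of 0.41 and 0.33, and no member passed edgeR's adjusted threshold. The values of these hours entered the choice of the members, so the shift is not independent of it.

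Candidates with a domain match gave the following counts, and their difference from the members was not tested. Of 96 colloblast candidates tested, 3 were higher and 6 lower at 17 than at 15 hpf at an unadjusted p under 0.05, and 3 higher and 0 lower at 20 than at 18 hpf. Their medians were 0.10 in both comparisons. Of 64 tentacle candidates, 0 were higher and 3 lower in the first comparison and 3 higher and 2 lower in the second, with medians of -0.05 and 0.09. None passed the adjusted threshold. The 853 other models highest at 18–20 hpf had medians of 0.06 and -0.06.

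The embryos that the rule left out for their depth give values that took no part in the choice. In embryo 82 at 19 hpf, 135 of the 145 members had a count. Their summed counts were 7.54% of the total (95% Wilson interval 7.41–7.69, for counting error only), and 2.51% without ML12231a, beside 2.21–3.24% in the 3 used embryos at 19 hpf. For 113 members (77.9%) embryo 82 lay above the median of the 15–17 hpf embryos, against 51.0% of the 4986 models with at least 20 CPM at 18–20 hpf. For 74 members (51.0%) it lay above their highest embryo, against 23.3% of these models. The 15–17 hpf embryos did take part in the choice, which favoured models with low levels there. The 4986 models were not chosen in that way. The excess of the members in these comparisons is therefore not independent of the choice. Embryo 82 is shallow, with 3 counts at 22.3 CPM. In embryo 78 at 15 hpf, with 18731 counts, 66 members had a count and the sum was 1.90% (1.71–2.10), beside 1.13–1.31% in the 3 used embryos of that hour. In embryo 48 at 5.5 hpf, 7 members had a count and the sum was 0.0130% (0.00822–0.0205). The embryo at 0 hpf had 1119 counts and 1 count of a member, too few to give a level.

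At 20 and 13 hpf, the hours with embryos of both number ranges, the members were lower in the embryos numbered 41–60. Embryo 60 had 20 hpf levels below those of all 3 other embryos for 91 members (against 38.7% of the 4986 models), between them for 40 and above them for 14 (against 20.4%). The median log2 ratio of embryo 60 over the mean of the others was -1.07 for members and -0.29 for all. For embryo 59 at 13 hpf these medians were -1.83 and -0.34. An edgeR fit had hour and number range as terms. At an adjusted p under 0.05, 0 members were higher and 11 lower in the embryos 41–60, against 2.05% and 1.76% of 9420 models. At an unadjusted p under 0.05, 3 members were higher and 51 lower, against 698 and 1196 of the 9420 models. The median coefficient was -1.04 for members and -0.22 for all. With 1 embryo of the first range at each hour, an embryo and its range cannot be told apart. The 13 and 20 hpf values also entered the choice of the members, in which every window before 13 hpf holds embryos 41–60 only. The lower member levels in that range are therefore not independent of the choice, and these comparisons describe it. Within the range 41–60, embryo 60 still lay above all 17 earlier used embryos for 126 members (86.9%), against 15.1% of the 4986 models, a comparison whose values the rule used.

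Some members have neighbouring identifiers. ML2.2 identifiers carry a scaffold number followed by a running number, and 15 members (10.3%) had another member within 3 numbers on the same scaffold number. The share with a member that near was 4.38% among 15007 other models with a count and 4.81% among the 853 other models highest at 18–20 hpf. The neighbours were ML064939a, ML064941a and ML064942a, and the pairs ML011717a with ML011718a, ML07362a with ML07363a, ML179912a with ML179914a, ML216341a with ML216343a, ML282521a with ML282522a and ML01514a with ML01516a. Their means at 18–20 hpf ran from 24.3 to 584 CPM. Levels within a group were unequal. In the first, ML064939a had a median of 615 CPM at 18–20 hpf, against 211 CPM at 15–17 hpf, ML064941a 55.9 against 22.9 CPM, and ML064942a 43.1 against 16.2 CPM. Whether neighbours are copies that share reads, or parts of 1 gene, was not tested, and their counts are uncertain to that extent.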

How the data were processed

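CEL-Seq counts per ML2.2 protein model were used as deposited. The authors made these counts without normalization; the submitters' processing notes name CASAVA 1.8, Bowtie2 2.1.0 and HTSeq 0.5.4p3. The sources used here do not give the genome build, counting options or collapsing of molecular identifiers, so reads may not be independent molecules. The 5 classes of uncounted reads stayed out of totals and tests. The 4 embryos under 200000 counts were left out of the choice. CPM used the embryo's total. Hours were compared with edgeR 4.0.16 (TMM, filterByExpr, quasi-likelihood F-test), with DESeq2 1.42.0, limma 3.58.1 voom, other scalings, filters and embryos as alternatives. On simulated counts of 8815 models this fit recovered 14% of 2-fold and 58% of 4-fold changes at 17 against 15 hpf, and 6% and 50% at 20 against 18 hpf. Scripts ran in R 4.3.3 and Python 3.11.15, with matplotlib 3.10.9, scipy 1.17.1, pandas 2.3.3 and numpy 2.4.6. Members and lists were chosen with earlier results of these data known. Text names all listed members and, of the rest, those with the 4 largest shares, 4 highest means, 2 smallest p-values in each direction of each comparison, the ranks at the limit, up to 3 led by 1 embryo, and neighbours; others are said to be singled out. Identifiers were matched to no reference name, sequence or position.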

Additional observations from a re-analysis of the deposited data

Results flagged for a closer look

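In 52 groups of 4 embryos of 1 hour (23 named members at 18 and 20 hpf, and the summed member level at 6 hours), 6 held an embryo far from the others by Dixon's criterion. Chance alone meets it in about 1 of 20 independent groups, but that rate cannot be applied here. Some named members were picked because 1 embryo led them, or for a small p-value at 20 against 18 hpf. The 6 flagged groups are also not independent, as several share embryo 81. At 18 hpf these were ML12231a with 70546 CPM in embryo 81 against 283–3390 CPM in the others, ML19853a with 908 CPM in the same embryo against 22.5–74.6 CPM, and the summed members with 8.95% there against 2.45–3.11%. The sum without ML12231a was 1.89% in that embryo. ML45522a had 377 CPM in embryo 74 against 209–229 CPM. At 20 hpf ML08388a had 37.4 CPM in embryo 68 against 5.59–10.9 CPM, and ML13378a had 358 CPM in embryo 90 against 173–188 CPM.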

How the results depend on the processing

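At 17 against 15 hpf the members called higher were 0 with edgeR, 9 with DESeq2 and 1 with no filter beyond 1 count, and 0–1 when 1 embryo was left out. ML13378a was then past the threshold with log2 fold changes of 2.74 (DESeq2), 2.60 (no filter) and 2.86 (without embryo 80), and ML02676a with 3.81 (DESeq2). No member was called at 20 against 18 hpf under any alternative run, and none called lower at 17 against 15 hpf. Members with a log2 fold change above 0 were 99–108 and, without 1 embryo, 98–114 at 17 against 15 hpf, and 110–117 and 90–119 at 20 against 18 hpf. Of the 145 members, 103–145 were chosen again under 9 other forms of the rule and 137–142 with 1 of the 11 late embryos left out. The summed member level in embryo 82 was 75449 CPM and, without ML12231a, 25051 CPM. Leaving ML12231a out of totals, out of the sum, and dropping the named models before taking 150 were chosen after seeing the data. No paired analysis was possible because the labels give each embryo a number of its own and none that groups share. Low counts limit the weakest members: 3 counts were 3.15–10.8 CPM in the late embryos.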
